A study of Mus musculus with 12 samples.

Results

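A set of 53 genes that encode the protein core of the spliceosome was described across Neuro-2a cells in which Rbmx or Rbmxl1 had been lowered. The genes were taken by name, as the Sm and LSm rings, the proteins of the U1, U2, U5 and U4/U6 particles, U2AF, the Prp19 complex with its partners, 3 DEAH-box helicases and the particle proteins of the minor spliceosome. All 53 symbols were found among the 55401 gene identifiers in the files, and all 53 passed the filter on low counts, which 17569 genes passed. Neuro-2a is an established mouse neuroblastoma line, sold by ATCC. The cells of a well received 1 µg of a GFP plasmid together with 3 µg of plasmid for artificial microRNAs in a miR30 backbone, driven by the CAG promoter. The miScramble group received a scrambled sequence, the miRbmx group 3 pooled plasmids directed at Rbmx, and the miRbmxl1 group 2 pooled plasmids directed at Rbmxl1. After 48 hours the cells expressing GFP were collected by sorting, so all 3 groups share transfection, the GFP plasmid and the sort. Each group held 4 libraries that the labels number as biological replicates 1 to 4. RNA was depleted of ribosomal RNA rather than selected for poly(A).

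The spliceosome removes introns from pre-mRNA and is built from small nuclear ribonucleoproteins (snRNPs), each made of a small nuclear RNA and proteins. A ring of Sm proteins sits on most spliceosomal RNAs, and a related LSm ring sits on U6. U1 binds the start of an intron, U2AF and U2 bind near its end, and the tri-snRNP of U4, U6 and U5 then joins and is remodelled into the active enzyme with the help of the Prp19 complex and helicases. A rare class of introns is removed by the minor spliceosome, which has its own U11/U12 particle. Rbmx encodes an RNA-binding protein of the hnRNP G family that acts in splicing, and Rbmxl1 is a retrocopy of it. Whether lowering them moves the transcripts of the splicing machinery itself is the question these values bear on.

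The libraries held 43.1 to 52.2 M reads in genes. Levels are given as CPM, the reads of a gene per 1 M reads in genes, after scaling of the library sizes. The targets were lower under their labels: Rbmx averaged 67.7 CPM in miScramble and 27.6 CPM in miRbmx, a log2 fold change of -1.30 ± 0.08 (SE). Rbmxl1 averaged 34.1 CPM in miScramble and 14.2 CPM in miRbmxl1, a log2 fold change of -1.27 ± 0.09. Of 15 neuroblastoma and neuronal markers, 13 passed the filter on low counts. Nefl and Nefm did not, with at most 0.0657 CPM in any library. The summed level of the markers was 2653 to 3207 CPM in miScramble, 2890 to 3461 CPM in miRbmx and 2926 to 3172 CPM in miRbmxl1. In each knockdown 3 of the 13 were called (23.1%, against 8.35% of all genes in miRbmx and 4.46% in miRbmxl1). Mycn, an oncogene of neuroblastoma, averaged 11.4 CPM in miScramble, 17.1 in miRbmx and 18.4 in miRbmxl1, and Uchl1, a neuronal deubiquitinase, averaged 587, 715 and 694 CPM. Mapt, the gene of the microtubule protein tau, was the 1 that fell, from 335 CPM to 279 and 276. The part of these shifts in the members' values was not tested. The 12 markers of fibroblasts, leukocytes, glia, epithelium and endothelium together reached 22.9 to 27.5, 21.2 to 30.7 and 22.4 to 28.5 CPM in the same groups. Mbp, a marker of oligodendrocytes or Schwann cells, was the highest of the 12, averaging 15.1, 14.7 and 13.8 CPM. The endothelial marker Pecam1 averaged 5.29, 6.47 and 6.31 CPM. The epithelial marker Epcam and the astrocyte marker Aqp4 were at 0 in every library. Replicates 1 and 2 stood apart from replicates 3 and 4 in every group, and what the numbers stand for is not given in the labels. Changes were therefore fitted with the replicate number as a block, which compares libraries of the same number. In bulk RNA, fewer cells with a transcript and less transcript per cell cannot be told apart.

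In the miScramble libraries the members spanned a 45.5-fold range of level per length, from 2.03 to 92.4 CPM per kilobase of merged exons, with a median of 17.6. The highest were Lsm4, a subunit of the U6 ring, at 92.4 ± 13.8 CPM per kilobase (SD, n = 4), Prpf8, the large scaffold protein at the heart of U5, at 86.8 ± 2.84, and U2af2, which binds the polypyrimidine tract, at 62.9 ± 10.9. Lsm4 and Prpf8 did not differ beyond their spread, nor did U2af2 and Snrpb, the next in order at 60.0 ± 3.77 CPM per kilobase. At the other end stood 3 proteins of the minor spliceosome. Rnpc3, the U11/U12 protein that contacts U12 RNA, was at 2.22 ± 0.480 CPM per kilobase, Snrnp48 at 2.10 ± 0.534 and Snrnp35 at 2.03 ± 0.205, and these 3 lay within each other's spread. The median of the 5 minor spliceosome genes was 2.22 CPM per kilobase, against 24.2 for the 7 genes of the Sm ring, 27.3 for the 11 of U2 and 19.0 for the 7 of U5. Among the subcomplexes with 7 or more genes the range was widest in U5, 19.4-fold from Txnl4a to Prpf8, and in the LSm ring, 18.7-fold from Lsm6 to Lsm4. Merged exons include introns that GENCODE annotates in retained-intron transcripts, so the level per length is lower for a gene with many such models. Part of the 50-base words of some genes also lies in other genes, 24.7% for U2af2 and 23.3% for Rnpc3.

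**Figure D1:**
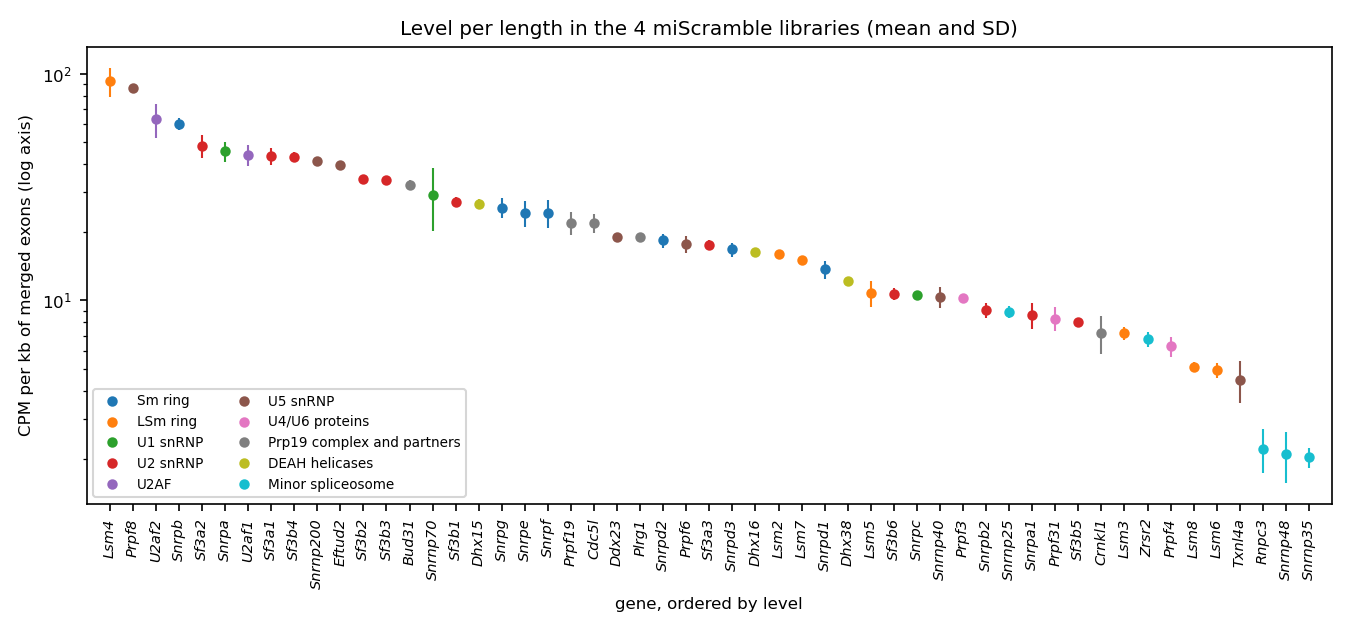
Level per length of the 53 genes in the miScramble group, as CPM per kilobase of merged exons on a log axis, ordered from highest to lowest. Points are means of 4 libraries, bars are the SD and colours mark the subcomplex. Lsm4 and Prpf8 lead at 92.4 and 86.8 CPM per kilobase, and 3 minor spliceosome genes close the order near 2.03 to 2.22.

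With Rbmx lowered, most core spliceosome transcripts stayed near their miScramble level, and 6 of 53 changed. Snrpd2, Lsm5 and Sf3b5 rose, and Snrnp70, Snrnp48 and Sf3b1 fell, in edgeR's quasi-likelihood test at an adjusted p under 0.05. The share called was 11.3% of the members against 8.35% of all genes tested. In one direction, 3 members rose where 4.16% of all genes did, and 3 fell where 4.19% did. At an unadjusted p under 0.05 the order was the other way, with 11 members (20.8%) against 24.9% of all genes. The median log2 fold change was 0.03 over the members and -0.00 over all genes, with 36 members above 0 and 17 below. For 41 of the 53 the fitted change was smaller than 1.1-fold, and for 44 the 95% interval lay wholly within 1.25-fold in either direction. The median half-width of those intervals was 0.14 on the log2 scale. In 4 members (7.55%, against 4.22% of all genes) every miRbmx library lay above every miScramble library, and in 1 (1.89%, against 3.85%) below. The miRbmx library was the higher in 4 of 4 same-numbered pairs in 20.8% of members, against 17.7% of all genes. It was the lower in 4 of 4 in 13.2%, against 16.8%.

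The 6 calls rested on the block and on single libraries. Without the block none of them was made and the lowest adjusted p among members was 0.288. The count was 0 without miScramble replicate 1 or 3 and without miRbmx replicate 1, 2 or 3, it was 2 without miScramble replicate 2, 1 without miScramble replicate 4 and 3 without miRbmx replicate 4. Libraries of miRbmxl1 share the estimate of the spread, and leaving out replicates 1 to 4 of that group in turn gave 6, 8, 5 and 3 calls. With the GC trend removed Sf3b1 lost its call (-0.15, adjusted p = 0.116), with no filter on low counts Lsm5 did (0.32, adjusted p = 0.0620), and with a filter of 1 CPM in 4 libraries Snrnp48 did (-0.56, adjusted p = 0.0528). No member was called within replicates 1 and 2 alone, and 4 were within replicates 3 and 4 alone (Snrpd2, Snrnp70, Lsm7 and Bud31). Of all genes, 4 of 17416 were called in the first of these fits and 1818 of 17950 in the second.

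**Figure D2:**
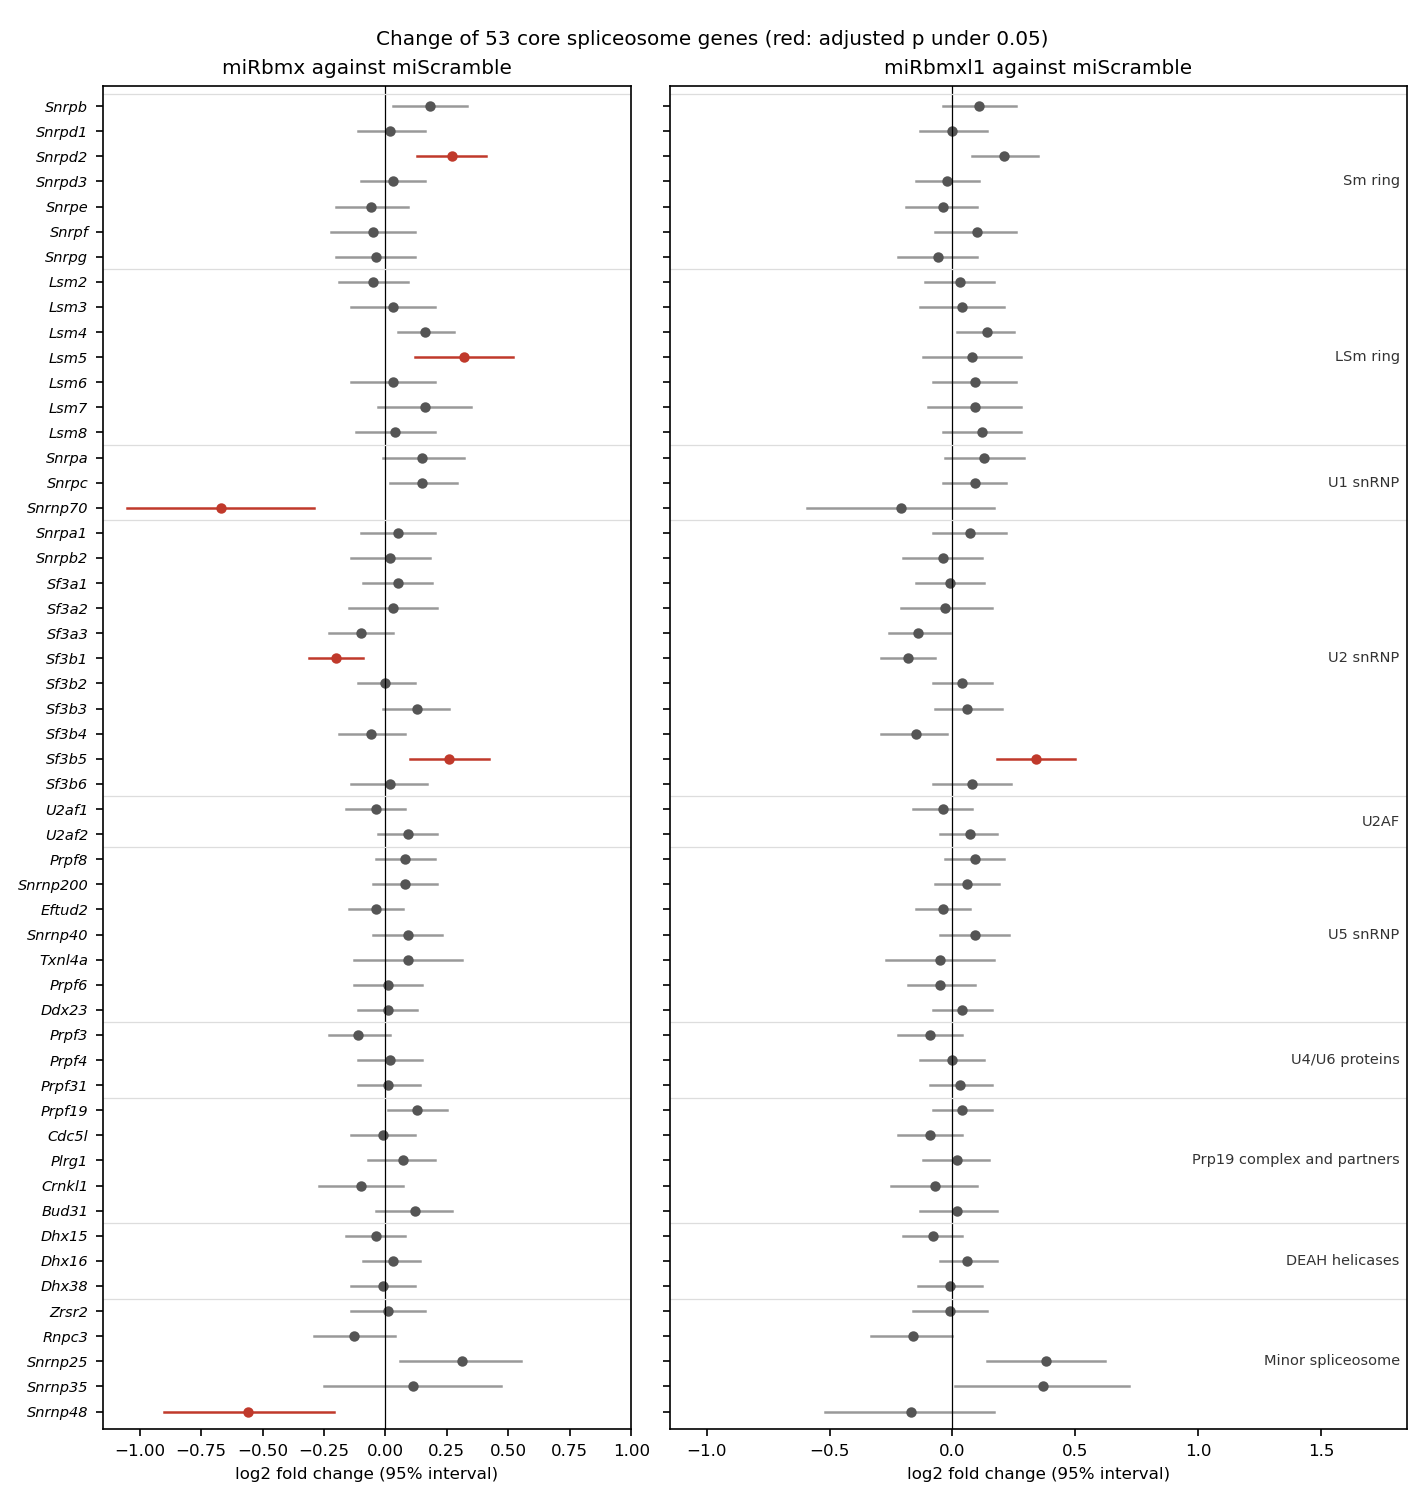
Log2 fold change of each of the 53 genes against miScramble, in miRbmx on the left and miRbmxl1 on the right, ordered by subcomplex. Points are fitted values with the replicate block, lines are 95% intervals, and red marks an adjusted p under 0.05. In miRbmx 6 genes are red, with Snrnp70 and Snrnp48 farthest to the left, and in miRbmxl1 Sf3b5 alone is.

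The Sm ring is the heteroheptamer that wraps the Sm site of U1, U2, U4 and U5 RNA. One of its 7 genes, Snrpd2, rose in miRbmx, and the median over the ring was 0.02. Snrpd2, which encodes the SmD2 subunit, was at 43.6, 51.7, 48.0 and 49.0 CPM in miScramble replicates 1 to 4 and at 53.4, 58.0, 58.6 and 61.6 CPM in the miRbmx replicates. Every miRbmx library lay above every miScramble library. The log2 fold change was 0.27 ± 0.07 (SE, adjusted p = 0.0227), and it lay between 0.24 and 0.33 when single libraries or numbers were left out. In miRbmxl1 the same gene was at 53.3, 49.6, 58.7 and 61.9 CPM, a log2 fold change of 0.21 ± 0.07 that missed the threshold (adjusted p = 0.0744). Replicate 2 of that group lay inside the miScramble range. Part of Snrpd2, 11.7% of its 50-base words, recurs in other annotated genes, mostly Gm10120. Snrpb, the gene of SmB, was also higher in all 4 miRbmx libraries than in any miScramble library, at 130 to 138 against 110 to 127 CPM, without passing the test (0.18 ± 0.07, adjusted p = 0.119). The other 5 genes of the ring had log2 fold changes between -0.06 and 0.03.

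The LSm ring holds 7 genes, and it binds the end of U6 RNA. Lsm5 was the 1 member called in miRbmx, and the median of the ring was 0.04. Lsm5 stood at 7.47, 7.89, 8.69 and 10 CPM in miScramble and at 8.95, 9.63, 11.8 and 12.2 CPM in miRbmx. The groups overlapped, and the miRbmx library was the higher in 4 of 4 same-numbered pairs. The log2 fold change was 0.32 ± 0.09 (adjusted p = 0.0457). In miRbmxl1 Lsm5 was at 8.07, 7.98, 10.6 and 9.40 CPM, with a change of 0.08 ± 0.09 (adjusted p = 0.690). Of Lsm5's 50-base words 20.8% recur in other genes, and reads with several alignments were not counted. Lsm4, the ring's largest mover in miRbmxl1, was at 80.4, 87.3, 106 and 110 CPM in miScramble, at 97.8, 96.6, 112 and 122 CPM in miRbmx and at 95.2, 88.4, 115 and 124 CPM in miRbmxl1. It was above the same-numbered control in all 4 pairs of both knockdowns without passing the test, with changes of 0.16 ± 0.06 (adjusted p = 0.0797) and 0.14 ± 0.06 (adjusted p = 0.176). All 7 genes of the ring had log2 fold changes above 0 in miRbmxl1, from 0.03 to 0.14, and none was called.

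Of the 3 U1 proteins, Snrnp70 had the largest change of any member in miRbmx. It encodes U1-70K, which binds the first stem-loop of U1 RNA and links U1 to SR proteins. The gene lies at chr7:45376453-45395742 on the minus strand (GRCm38). In miScramble it was at 197, 159, 321 and 214 CPM, in miRbmx at 89.1, 91.0, 204 and 202 CPM, and in miRbmxl1 at 95.9, 209, 307 and 189 CPM. The miRbmx library was the lower in 4 of 4 same-numbered pairs, but miRbmx replicates 3 and 4 lay within the miScramble range. In miRbmxl1, replicate 1 alone lay below the miScramble range. The log2 fold change in miRbmx was -0.67 ± 0.18 (95% interval -1.05 to -0.29, adjusted p = 0.0308). Replicates 1 and 2 alone gave -0.99 and replicates 3 and 4 alone -0.37. The value was -0.43 without miScramble replicate 1 (adjusted p = 0.129). DESeq2 gave an adjusted p of 0.0581, and edgeR with no filter on low counts 1.9e-20 at the same fold change. In miRbmxl1 the change was -0.21 ± 0.18 (adjusted p = 0.557), and it was called with no filter on low counts. It went from -0.45 without miRbmxl1 replicate 2 to 0.06 without the libraries numbered 1. The other proteins of U1 had values of the opposite sign that missed the threshold: Snrpa (U1-A) had a log2 fold change of 0.15 ± 0.08 in miRbmx (adjusted p = 0.226), and Snrpc (U1-C) 0.15 ± 0.06 (adjusted p = 0.138).

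U2 recognizes the branch point, and 2 of its 11 genes were called in miRbmx, in opposite directions. Sf3b1 encodes the large SF3B scaffold that clamps the branch helix. It was at 310, 314, 324 and 292 CPM in miScramble and at 263, 268, 278 and 270 CPM in miRbmx, with no overlap. It fell by 0.20 on the log2 scale, ± 0.05 (adjusted p = 0.0307). In miRbmxl1 Sf3b1 was at 253, 279, 297 and 266 CPM, a log2 fold change of -0.18 ± 0.05 whose adjusted p was 0.0626, and 1 of those libraries lay within the miScramble range. Sf3b5, a small subunit of the same complex, was at 30.2, 31.3, 32.3 and 30.2 CPM in miScramble, at 34.8, 42.9, 36.2 and 34.8 CPM in miRbmx and at 39.8, 36.0, 42.1 and 38.9 CPM in miRbmxl1. Every knockdown library of both groups lay above every miScramble library. Sf3b5 rose by a log2 fold change of 0.26 ± 0.07 in miRbmx (adjusted p = 0.0415) and 0.34 ± 0.07 in miRbmxl1 (adjusted p = 0.0210). Without miRbmx replicate 2, the highest library, the first of these values was 0.17 with an adjusted p of 0.188. The other 9 U2 genes had log2 fold changes from -0.10 to 0.13 in miRbmx, and the median of all 11 was 0.02.

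**Figure D3:**
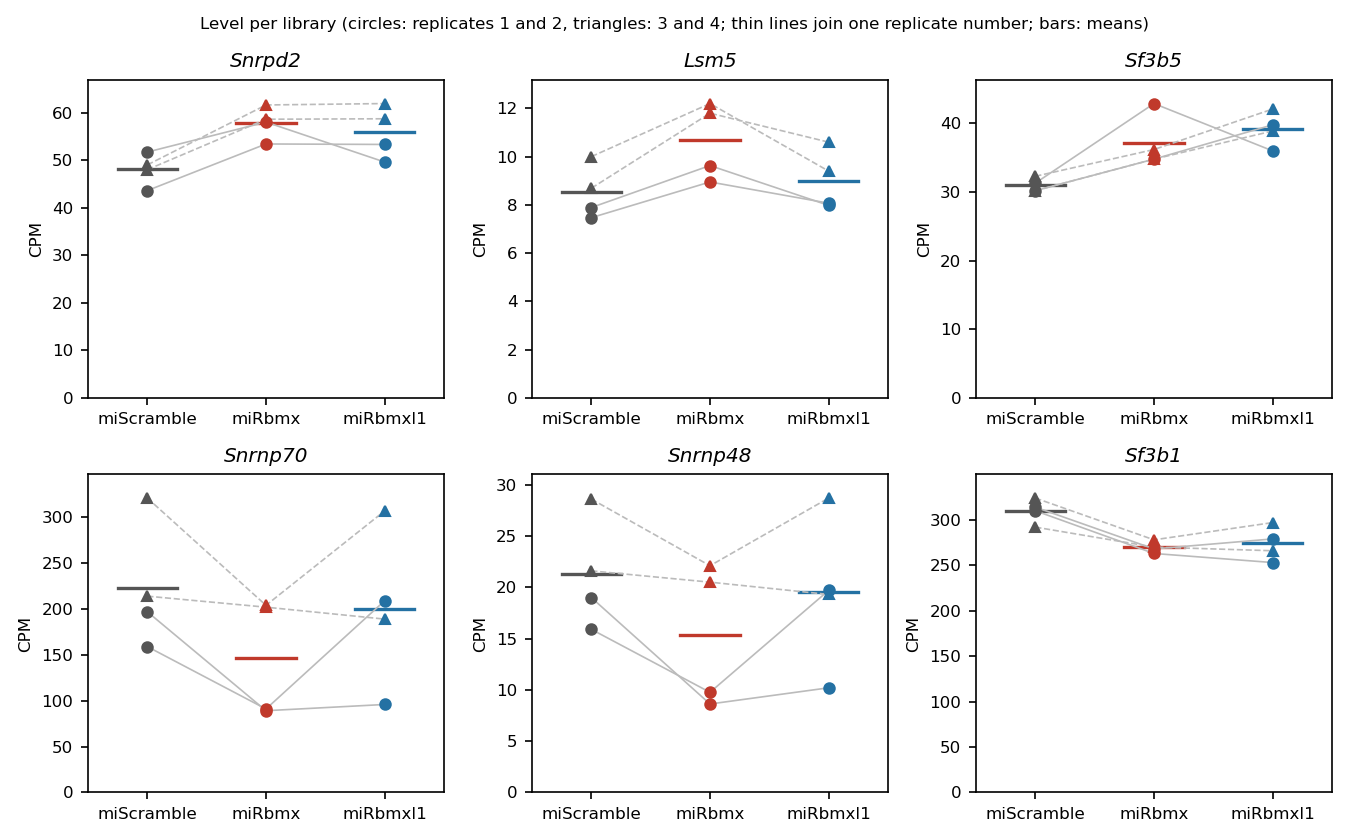
CPM of the 6 genes called in miRbmx, by library and group, on linear axes from 0. Circles are replicates 1 and 2, triangles replicates 3 and 4, thin lines join libraries of one number and bars are means. Snrpd2, Sf3b5 and Sf3b1 separate miRbmx from miScramble without overlap, whereas Lsm5, Snrnp70 and Snrnp48 overlap and differ within numbers.

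Neither U2AF gene was called in either knockdown. U2af2 was at 220, 220, 298 and 297 CPM in miScramble, at 227, 237, 316 and 322 CPM in miRbmx and at 209, 223, 339 and 323 CPM in miRbmxl1. Its libraries separated by replicate set rather than by group, and the log2 fold changes were 0.09 ± 0.06 and 0.07 ± 0.06 (adjusted p = 0.340 and 0.559). U2af1, which contacts the AG at the intron end, had a change of -0.04 ± 0.06 in both. Of its 50-base words 59.4% recur in other genes, and of those of U2af2 24.7%, so the counts of both are uncertain.

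The U5 particle aligns the exon ends and carries the catalytic scaffold, and none of its 7 genes was called in either knockdown. Prpf8 was at 649, 674, 623 and 645 CPM in miScramble, at 705, 728, 663 and 643 CPM in miRbmx and at 761, 663, 642 and 692 CPM in miRbmxl1. The groups overlapped, with log2 fold changes of 0.08 ± 0.06 (adjusted p = 0.433) and 0.09 ± 0.06 (adjusted p = 0.429). Snrnp40, a WD40 protein of U5, had the largest fitted change of the particle in both knockdowns. It was at 35.2, 41.1, 45.1 and 43.7 CPM in miScramble, at 39.7, 38.1, 48.7 and 49.9 CPM in miRbmx and at 36.1, 38.8, 49.9 and 52.5 CPM in miRbmxl1. The groups overlapped, and the changes were 0.09 ± 0.07 in each (adjusted p = 0.428 and 0.482). Eftud2, the GTPase of U5, spanned 318 to 339 CPM in miScramble, 322 to 326 in miRbmx and 311 to 337 in miRbmxl1.

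The 3 U4/U6 proteins, the 5 genes of the Prp19 complex with partners and the 3 DEAH helicases gave no call in either knockdown. Prpf3, which sits on the U4/U6 duplex, was at 57.0, 56.7, 59.6 and 59.7 CPM in miScramble, at 53.9, 48.5, 56.3 and 58.2 CPM in miRbmx and at 51.6, 53.4, 53 and 61.3 CPM in miRbmxl1. It was lower in 4 of 4 miRbmx pairs with some overlap, and its changes were -0.11 ± 0.06 (adjusted p = 0.285) and -0.09 ± 0.06 (adjusted p = 0.431). Prpf19, the ubiquitin ligase that names its complex, was at 140, 147, 174 and 176 CPM in miScramble, at 161, 166, 188 and 181 CPM in miRbmx and at 149, 139, 189 and 179 CPM in miRbmxl1. Its change in miRbmx was 0.13 ± 0.06 (adjusted p = 0.151), again with overlap between the groups. Cdc5l, the Myb-related partner of Prpf19, had the group's largest change in miRbmxl1, -0.09 ± 0.06 (adjusted p = 0.458). It was at 76.1, 80.1, 67.2 and 66.2 CPM in miScramble, at 75.6, 77.6, 64.5 and 69.5 CPM in miRbmx and at 79.1, 67.4, 60.5 and 66.0 CPM in miRbmxl1. Of Cdc5l's 50-base words 38.5% recur in other genes. Dhx15, the helicase that takes the spliceosome apart after splicing, was at 214, 238, 228 and 228 CPM in miScramble, at 206, 211, 248 and 220 CPM in miRbmx and at 195, 202, 245 and 219 CPM in miRbmxl1. The ranges overlapped and the changes were -0.04 ± 0.06 and -0.08 ± 0.06 (adjusted p = 0.722 and 0.480).

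Of the 5 minor spliceosome genes, Snrnp48 was the 1 called in miRbmx. It encodes the U11-48K protein, which recognizes the 5′ splice site of minor introns, and lies at chr13:38204938-38227665 on the plus strand. Snrnp48 was at 19.0, 15.9, 28.6 and 21.6 CPM in miScramble, at 8.62, 9.76, 22.1 and 20.5 CPM in miRbmx and at 10.2, 19.7, 28.7 and 19.3 CPM in miRbmxl1. As with Snrnp70, miRbmx replicates 1 and 2 and miRbmxl1 replicate 1 were the 3 lowest of the 12 libraries. The log2 fold change in miRbmx was -0.56 ± 0.16 (95% interval -0.90 to -0.21, adjusted p = 0.0460), lower in 4 of 4 pairs. It was -0.93 within replicates 1 and 2, -0.23 within replicates 3 and 4 and -0.34 without miScramble replicate 1 (adjusted p = 0.179). DESeq2 gave an adjusted p of 0.0787, and edgeR with no filter on low counts kept the call. In miRbmxl1 the change was -0.17 ± 0.16 (adjusted p = 0.60), and it went from -0.36 to 0.06 when the same libraries were left out.

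The 3 other U11/U12 proteins and Zrsr2, a relative of U2af1 that acts on the end of minor introns, missed the threshold in both knockdowns. Snrnp25 was at 8.83, 9.31, 8.87 and 10.1 CPM in miScramble, at 9.81, 11.4, 11.9 and 12.8 CPM in miRbmx and at 10.5, 9.35, 15.6 and 13.5 CPM in miRbmxl1. It was the higher in 4 of 4 pairs of each knockdown, with log2 fold changes of 0.31 ± 0.11 (adjusted p = 0.108) and 0.38 ± 0.11 (adjusted p = 0.0695). Snrnp35 was at 2.55, 2.70, 3.14 and 2.55 CPM in miScramble, at 2.71, 2.46, 3.58 and 3.07 CPM in miRbmx and at 2.59, 4.43, 3.72 and 3.47 CPM in miRbmxl1. It had the lowest level of the set, and its groups overlapped. The miRbmx library was the higher in 3 of 4 same-numbered pairs and the miRbmxl1 library in 4 of 4, with log2 fold changes of 0.11 ± 0.17 (adjusted p = 0.735) and 0.37 ± 0.17 (adjusted p = 0.232). Rnpc3 was at 11.2, 13.1, 18.3 and 16.2 CPM in miScramble, at 10.4, 11.6, 16.1 and 15.7 CPM in miRbmx and at 10.5, 11.1, 15.2 and 15.5 CPM in miRbmxl1. Every knockdown library was below its same-numbered control, with changes of -0.13 ± 0.08 (adjusted p = 0.331) and -0.16 ± 0.08 (adjusted p = 0.252). Of Rnpc3's 50-base words 23.3% also lie in Amy1, a gene whose annotated exons overlap those of Rnpc3 on the same strand.

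With Rbmxl1 lowered, Sf3b5 was the 1 member called of 53, a share of 1.89% against 4.46% of all genes tested. The 1 call was a rise, where 2.25% of all genes rose, and no member fell, where 2.20% did. At an unadjusted p under 0.05 there were 9 members (17.0%), against 19.8% of all genes. The median log2 fold change of the members was 0.03, with 30 above 0 and 23 below, and the median over all genes was 0.01. The 95% interval lay within 1.25-fold for 46 of 53 members. In 3 members (5.66%, against 2.88% of all genes) every miRbmxl1 library lay above every miScramble library, and in 1 (1.89%, against 2.79%) below. The miRbmxl1 library was the higher in 4 of 4 same-numbered pairs in 13.2% of members, against 13.4% of all genes. It was the lower in 4 of 4 in 7.55%, against 12.6%. The comparison uses the same 4 miScramble libraries as that of miRbmx, so the 2 sets of values are not independent. Without the block no member was called (lowest adjusted p = 0.365), and the Sf3b5 call was also lost without any one miScramble library or without miRbmxl1 replicate 1, 3 or 4. It was kept without miRbmxl1 replicate 2, where Snrpd2 and Snrnp25 joined it. DESeq2 called 4 members, adding Snrpd2, Sf3b1 and Snrnp25.

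Set directly against each other, miRbmx and miRbmxl1 differed in no member in edgeR's test, where 2 of 17569 genes were called (0.0114%), Rbmx and Rbmxl1 themselves. At an unadjusted p under 0.05 there were 3 members, a share of 5.66% against 5.70% of all genes, and the lowest adjusted p was 0.859. These were Lsm5 with a log2 difference of 0.24 ± 0.09, Snrnp70 with -0.46 ± 0.18 and Snrnp48 with -0.38 ± 0.16, each as miRbmx minus miRbmxl1. DESeq2 called no member either, and with no filter on low counts edgeR called 2, Snrnp70 (adjusted p = 4.1e-08) and Snrnp48. The 95% interval of the difference lay within 1.25-fold for 48 of 53. For Lsm5, Snrnp70, Txnl4a, Snrnp35 and Snrnp48 it did not, so a difference between the knockdowns in these 5 is neither shown nor bounded closely.

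Snrnp70 and Snrnp48 had similar patterns over the libraries, a pair singled out after their values were seen and described here with all groups included. Within the 6 libraries of replicates 1 and 2, Pearson's r of their log2 CPM was 0.994 and Spearman's rho 1.00, and r was 0.984 without the 2 libraries farthest from the Snrnp70 median. Within replicates 3 and 4 r was 0.985 and rho 0.886, and r was 0.838 without the 2 farthest. Among the 1378 pairs of members this pair ranked 1 and 2 by r. Adjusted over the 2756 relations computed, the exact permutation p-values were 0.425 and 0.488 for r and 0.450 and 0.587 for rho, so the relation does not pass a correction for all pairs. The smallest unadjusted p that 6 libraries allow is 0.00139. Reads with several alignments made up 26.5%, 25.8% and 26.0% of the file total in miRbmx replicates 1 and 2 and miRbmxl1 replicate 1, the 3 libraries lowest in both genes. In the other 9 libraries they made up 20.6% to 25.7%. The part of this share in the result was not tested.

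**Figure D4:**
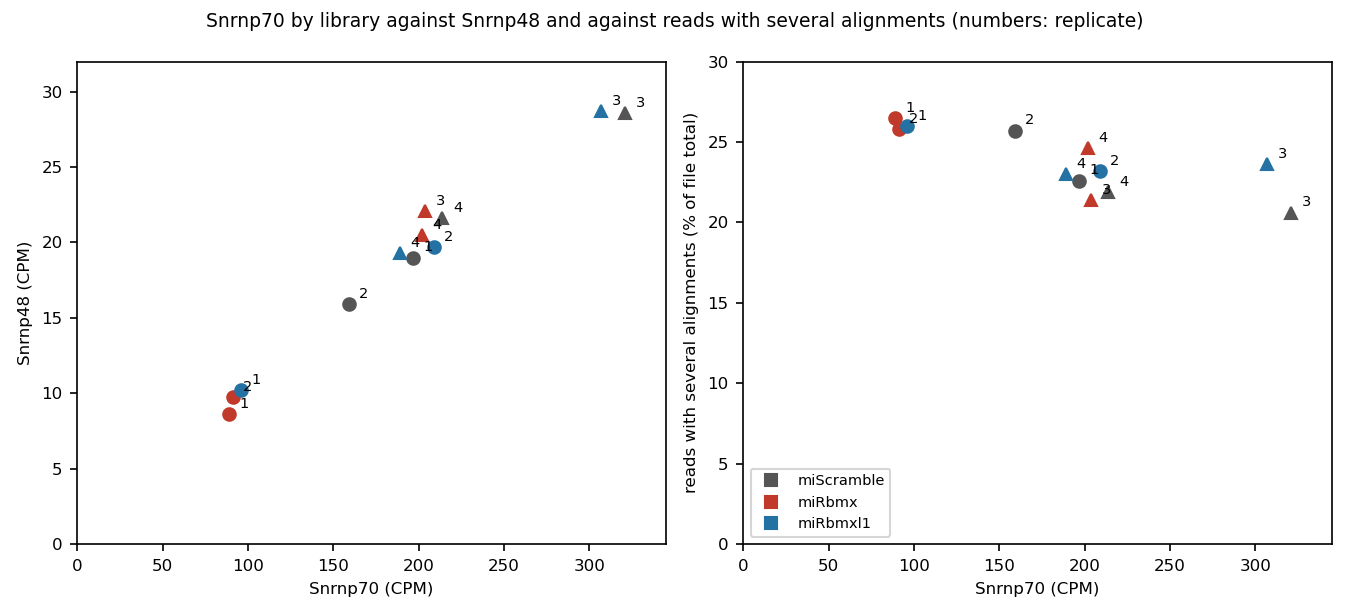
Snrnp70 in CPM for the 12 libraries, against Snrnp48 in CPM on the left and against the share of reads with several alignments, as a percent of the file total, on the right. Colours mark groups, circles are replicates 1 and 2, triangles 3 and 4, and numbers give the replicate. The 3 libraries under 100 CPM of Snrnp70 (miRbmx replicates 1 and 2, miRbmxl1 replicate 1) are also the 3 lowest for Snrnp48 and have the 3 highest shares of reads with several alignments.

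Both genes carry long stretches that GENCODE assigns to retained-intron transcripts alone. Of the merged exon bases of Snrnp48 73.8% lie in such models only, and of Snrnp70 73.5%, the ranks 3 and 4 among the 53 members, whose median was 19.0%. Lsm8 (78.6%) and Snrpc (77.3%) ranked above them and Lsm3 followed at 73.0%, and none of these 3 was called. Their log2 fold changes in miRbmx were 0.04 ± 0.08, 0.15 ± 0.06 and 0.03 ± 0.08. The share was 41.7% for Sf3b1, 45.8% for Snrpd2, 35.4% for Lsm5 and 0 for Sf3b5. The counts do not separate reads of these stretches from reads of spliced exons. The annotation the authors counted with is not given in the sources used here.

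The stretches just upstream of the start sites of the called members are shown because these genes were called in miRbmx. They come from RefSeq promoters on GRCm38.p6, a table that holds 42 of the 53 members and no entry for Sf3b5. Each runs 5′ to 3′ on the strand of its gene and ends before the first annotated exon. Snrnp70 is chr7:45395743-45395892 (minus strand), Snrnp48 chr13:38204788-38204937 (plus), Sf3b1 chr1:55027482-55027631 (minus), Lsm5 chr6:56704711-56704860 (minus) and Snrpd2 chr7:19149588-19149721 (plus). Capitals mark the NRF1 motif GCATGCGC, the GC box with the letters GGGCGG, or the CCAAT box, on either strand.
Snrnp70: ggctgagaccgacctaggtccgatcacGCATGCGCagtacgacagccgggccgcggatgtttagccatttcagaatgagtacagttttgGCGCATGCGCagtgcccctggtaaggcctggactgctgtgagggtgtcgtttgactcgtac
Snrnp48: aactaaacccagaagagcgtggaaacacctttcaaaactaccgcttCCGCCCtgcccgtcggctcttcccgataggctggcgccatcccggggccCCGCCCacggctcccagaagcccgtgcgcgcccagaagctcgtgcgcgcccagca
Sf3b1: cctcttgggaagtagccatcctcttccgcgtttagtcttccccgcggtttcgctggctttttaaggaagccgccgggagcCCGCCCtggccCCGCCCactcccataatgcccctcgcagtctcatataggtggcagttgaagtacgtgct
Lsm5: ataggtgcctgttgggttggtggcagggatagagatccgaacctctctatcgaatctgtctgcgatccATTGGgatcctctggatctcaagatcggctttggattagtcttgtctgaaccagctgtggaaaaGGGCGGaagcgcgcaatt
Snrpd2: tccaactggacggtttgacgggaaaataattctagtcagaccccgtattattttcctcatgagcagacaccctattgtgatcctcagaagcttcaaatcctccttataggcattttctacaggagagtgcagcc

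The search also covered the TATA box as TATAAA, an ETS motif with the letters CCGGAAG, the YY1 motif AAGATGGC, the E-box with the letters CACGTG and the motif TCTCGCGA, none of which occurs in the printed stretches. The Snrnp70 stretch holds the NRF1 letters in 2 places, and at the second the forward and reverse matches overlap. Over the 250 bases upstream, these letters occur in 2.32% of 27025 promoters, 1 per gene, and in 3 of the 42 members. The stretches of Snrnp48 and Sf3b1 hold the GC box in 2 places each, and none of the motifs searched is shared with Snrnp70. The GC box occurs in 32.9% of all promoters and in 25 of 42 members (59.5%), and the ETS motif in 7.05% of all and in 13 of 42 (31.0%). The TATA box occurs in 13.0% of all promoters and in 3 of the 42, the CCAAT box in 34.5% and 15, the YY1 motif in 1.59% and 0, the E-box in 6.05% and 1, and the last motif in 0.925% and 3. A match is a description of the letters and shows no binding.

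The members also differed by replicate set. In 10 of 53 members (18.9%) all 6 libraries of replicates 3 and 4 lay above all 6 of replicates 1 and 2, against 9.40% of all genes tested. In 1 member, Sf3a1, all 6 lay below, against 10.6% of all genes. The largest differences were in Snrnp48, 0.76 on the log2 scale with overlapping ranges, and Snrnp70, 0.77, likewise overlapping. Rnpc3 averaged 11.3 CPM in replicates 1 and 2 and 16.2 CPM in replicates 3 and 4, a log2 difference of 0.51 without overlap, and U2af2 averaged 223 and 316 CPM, a difference of 0.50 without overlap. Sf3a1, a subunit of the U2 SF3A complex, averaged 302 and 239 CPM, a difference of -0.34. These values describe 2 sets of libraries whose origin is not labelled. A test of whether the knockdown effects differed between the sets called none of the 53 members and none of the 17569 genes in edgeR, with 9 members at an unadjusted p under 0.05 for miRbmx and 7 for miRbmxl1. Of all genes 11.1% and 8.36% had such a p. The lowest adjusted p among members was 0.309 and 0.322.

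Around the core, 7 of 66 other spliceosome proteins were called in miRbmx, a share of 10.6% against 8.35% of all genes. All 7 fell, where 4.19% of all genes fell and 4.16% rose. Of the 66, all of which passed the filter, 48 had log2 fold changes below 0 (72.7%, against 50.0% of all genes), with a median of -0.07. The calls with the lowest p-values were Ddx46, a helicase that acts with U2, from 83.3 to 57.5 CPM (-0.55 ± 0.10, adjusted p = 0.00748), Luc7l3, a U1-associated protein, from 53.9 to 37.9 CPM (-0.52 ± 0.11, adjusted p = 0.0132), Prpf39, another U1-associated protein, from 80.0 to 56.3 CPM (-0.54 ± 0.12, adjusted p = 0.0149), and Prpf4b, a kinase of the tri-snRNP, from 76.7 to 64.3 CPM (-0.25 ± 0.06, adjusted p = 0.0154). In miRbmxl1 the list had 3 calls (4.55%, against 4.46% of all genes) and none was a rise. Those that fell included Ddx46 (-0.49 ± 0.10, adjusted p = 0.0155) and Rbm25 (-0.29 ± 0.08, adjusted p = 0.0442), with a median of -0.07 over the list. Without the block none of the 66 was called in either knockdown. The assembly and import machinery of snRNPs, 22 genes that include Smn1 and the Gemin genes, gave no call. At an unadjusted p under 0.05 there were 7 in miRbmx (31.8%, against 24.9% of all genes) and 6 in miRbmxl1 (27.3%, against 19.8%). Of 10 exon junction complex genes 1 fell in miRbmx, Upf3b (-0.46 ± 0.11, adjusted p = 0.0205), where 4.19% of all genes did. In miRbmxl1 none was called, and Upf3b had a change of -0.36 ± 0.11 (adjusted p = 0.0765). Of the LSm paralogs Lsm1, Lsm12, Lsm14a and Lsm14b, 2 rose in miRbmx, where 4.16% of all genes did: Lsm14b (0.24 ± 0.06, adjusted p = 0.0226) and Lsm12 (0.21 ± 0.06, adjusted p = 0.0361). None of these 4 was called in miRbmxl1 (lowest adjusted p = 0.188), and their median change there was -0.01. Lsm10 and Lsm11, paralogs of the U7 particle counted with the assembly genes, were called in neither knockdown. The spliceosomal RNA genes that passed the filter were Rnu11, Rnu12, Rnu1a1, Rnu2-10 and Rnu5g, none of which was called or had an unadjusted p under 0.05. The same held for Rnu73b, a small nucleolar RNA gene that was tested with them. The highest was Rnu12, the RNA of the minor U12 particle, at 12.3 CPM in miScramble.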

How the data were processed

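The authors deposited raw counts, 1 whole number per Ensembl gene and library, made with cutadapt 1.1037, STAR 2.5.3a and HTSeq 0.6.1p1 on mm10, per the submitters' processing notes, which also name R 3.3.2 and DESeq2 1.16.1. The annotation and the strand setting are not given in the sources used here. Rows naming no gene (52.3% to 57.4% of each file) were left out. The counts were fitted in edgeR 4.0.16 (R 4.3.3) with TMM scaling and filterByExpr (minimum count 10, minimum total 15), group plus replicate number as block over all 12 libraries, and the quasi-likelihood F-test. A gene counted as called when its p-value, adjusted by Benjamini-Hochberg over 17569 genes, was under 0.05. In all 12 same-numbered pairs of libraries the deviations from group means correlated (r from 0.195 to 0.524), and the numbers were taken to pair the libraries. Because replicates 1 and 2 stood apart from 3 and 4 in every group, such values do not show pairing by single number. Libraries of different numbers were not compared, so that pairing was not tested. It is not given in the labels either. The labels say the replicates are biological but not whether they are separate cultures. CPM use TMM-scaled library sizes, except in the search for genes with a pattern like that of Snrnp70. Gene positions, transcript models and 50-base words come from GENCODE M21. Members and gene lists were chosen with earlier results of these data known. Genes named with values in every library are those called, the largest change in each subcomplex and knockdown, 4 landmarks (Snrnp70, Sf3b1, U2af2, Prpf8) and the 3 highest and 3 lowest per length. From each other list up to 4 called genes are named. The values of 1 called gene outside the 53 are not reported here. Alternatives were no block, GC trend removed, RLE, DESeq2 1.42.0, other filters, replicate sets apart and each library or number left out.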

Additional observations from a re-analysis of the deposited data

Results flagged for a closer look

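Over the 53 genes and 3 groups, 159 groups of 4 libraries were examined for a library far from the other 3, and 5 were found. Chance flags about 1 in 20 groups, which would be 7.95 here. Snrpd1, the SmD1 gene, was at 32.2 CPM in miScramble replicate 2 against 26.6 to 27.2 CPM in the other libraries of its group, and at 30.1 CPM in miRbmx replicate 2 against 27.9 to 28.2 CPM. Snrpd3, the SmD3 gene, was at 53.9 CPM in miRbmx replicate 1 against 60.0 to 61.1 CPM. Snrpb2, the U2-B'' gene, was at 28.0 CPM in miRbmxl1 replicate 1 against 23.7 to 24.3 CPM. Eftud2 was at 318 CPM in miScramble replicate 4 against 336 to 339 CPM. None of these 4 genes was called in any comparison.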

How the results depend on the processing

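Depth was 43.1 to 52.2 M reads in genes per library, and the widest 95% half-width of a member was 0.38 on the log2 scale. Without the replicate block, the count of members called went from 6 to 0 in miRbmx and from 1 to 0 in miRbmxl1, and that of all genes from 1467 to 1 and from 783 to 1. Within replicates 1 and 2 alone, members called were 0 and 0 and all genes 4 and 30, with 4 genes in miRbmx against miRbmxl1. Within replicates 3 and 4 alone, members called were 4 and 3 and all genes 1818 and 992 of 17950, and 18 genes differed between the knockdowns. DESeq2 called 4 members and 1279 genes in miRbmxl1, and 10 genes between the knockdowns. With no filter on low counts, edgeR called 3 members and 1243 genes in miRbmxl1, and 2 members and 86 genes between the knockdowns. The cause of these shifts was not tested. Leaving out single libraries or replicate numbers gave 0 to 8 members and 146 to 1904 genes in miRbmx, 0 to 3 members and 100 to 1032 genes in miRbmxl1, and 0 members and 2 to 7 genes between the knockdowns. The members' median log2 fold change stayed between -0.01 and 0.07 in miRbmx and between -0.04 and 0.06 in miRbmxl1 under all alternatives. No called member changed sign. Signs turned only for uncalled changes. Leaving out single libraries or replicate numbers gave -0.09 to 0.01 for Dhx15 in miRbmx, and in miRbmxl1 -0.45 to 0.06 for Snrnp70 and -0.36 to 0.06 for Snrnp48. For miRbmx minus miRbmxl1 it gave -0.01 to 0.08 for Snrpd2, -0.04 to 0.01 for Sf3b1, -0.00 to 0.07 for U2af2 and -0.05 to 0.04 for Prpf8. Within replicates 1 and 2 alone U2af2 and Snrnp40 were at -0.02 and -0.01 in miRbmxl1, and Sf3b5 and Prpf8 at 0.03 and 0.01 between the knockdowns. Within replicates 3 and 4 alone Dhx15 was at 0.03 in miRbmx and 0.01 in miRbmxl1, and Snrpd2 and U2af2 at -0.00 and -0.05 between the knockdowns.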

Other observations

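The genes whose library pattern was most like that of Snrnp70 were looked up after its values were seen. Log2 CPM of 12 libraries, here without TMM scaling, was centred within each replicate set. It was correlated with Snrnp70 over 11899 genes with a mean count of at least 100. Snrnp48 ranked 1 (r = 0.99), followed by Ubp1, Snhg20, Vegfa, Srsf7, Arglu1, Ccnl2, Rnf207, Paxbp1 and Dmpk (r from 0.98 to 0.99). Srsf7 encodes an SR splicing factor, and Arglu1 and Ccnl2 encode proteins of nuclear speckles. Among the other spliceosome proteins, the U1-associated Luc7l3 (r = 0.92), Luc7l2 (r = 0.91) and Prpf39 (r = 0.90) and the speckle protein Srrm2 (r = 0.90) stood highest. Among all 11899 genes these ranked only 151, 215, 241 and 273, so many genes outside the list were more like Snrnp70. Other genes of the list went the other way, down to Usp39 at r = -0.74. All libraries, groups included, enter these values, and they are given as a description.

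Across the 53 members, the log2 fold change was set against 4 properties of the gene: genomic span, length of merged exons, GC content and mean level. Spearman's rho with span was -0.393 in miRbmx and -0.504 in miRbmxl1, against -0.0276 and -0.104 over 17540 genes. Within replicates 1 and 2 alone rho over the members was -0.218 and -0.314, and within replicates 3 and 4 alone -0.502 and -0.503. With the length of merged exons rho was -0.284 and -0.333 over the members, against -0.106 and -0.152 over all genes. Within replicates 1 and 2 the members' values were -0.110 and -0.166, and within replicates 3 and 4 they were -0.454 and -0.393. With GC content rho was 0.235 and 0.170, against 0.162 and 0.184, and with mean level -0.0193 and -0.138, against 0.0543 and -0.0856. In miRbmx, the members' rho with GC content was 0.390 in the set of replicates 1 and 2 but -0.0557 in that of 3 and 4, and with mean level 0.291 and -0.407. Over all genes these values were 0.277 and -0.0304 with GC content and 0.180 and -0.101 with mean level. In miRbmxl1 it was 0.183 and 0.121 with GC content and 0.0326 and -0.326 with mean level. Genes of one library share its depth and composition, and both comparisons share the miScramble libraries, so no p is given.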
